A study of Mus musculus with 12 samples.

Results

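In mouse embryonic stem cells (ESCs), 5 genes with roles in placing or maintaining DNA methylation were followed after the transcriptional coactivator YAP was lowered or raised. They are the DNA methyltransferase genes *Dnmt1*, *Dnmt3a* and *Dnmt3b*, the catalytically inactive family member *Dnmt3l*, and *Uhrf1*. They were taken by gene symbol and make up 5 of the 24480 genes in the expression tables. The cells were E14Tg2a, a feeder-free mouse ESC line grown in serum with leukemia inhibitory factor, and every culture was transiently transfected with a lipid reagent. YAP was lowered with pooled Stealth siRNAs directed at *Yap1* (YAP KD), and scrambled siRNA served as the control (CTR KD). It was raised with a plasmid carrying mouse YAP behind the CAG promoter (YAP OE). The control plasmid (CTR OE) encodes GFP according to the labels and is an empty vector according to the methods. Each of the 4 groups had 3 libraries from independent samples, 12 in all. The E14Tg2a line is a single line, and a transiently transfected culture can hold cells that took up little siRNA or plasmid.

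DNA methylation in mammals is placed on cytosines in CpG pairs. DNMT1 copies the pattern onto the new strand at replication, and UHRF1 recruits it by recognizing hemimethylated CpG. DNMT3A and DNMT3B add methyl groups to unmethylated sites. DNMT3L has no enzyme activity of its own, binds the DNMT3 enzymes, stimulates them and guides them to nucleosomes whose histone H3 lysine 4 is unmethylated. ESCs in serum express both de novo enzymes and high *Dnmt3l*, and keep a highly methylated genome.

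The genes lie on 5 chromosomes of the mm10 assembly (GRCm38). *Dnmt1* spans chr9:20907206-20959888, *Dnmt3a* chr12:3801559-3914443, *Dnmt3b* chr2:153649411-153687730, *Dnmt3l* chr10:78042287-78063622 and *Uhrf1* chr17:56303337-56323486. RSEM summed 5, 3, 9, 6 and 4 RefSeq transcripts, in that order. *Aire*, a transcription factor gene of thymic epithelium, overlaps the start of *Dnmt3l* by 1324 bases.

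YAP acts on DNA through TEAD proteins, so the 250 bases before each RefSeq start site (GRCm38.p6) were searched on both strands for the TEAD core motif GGAATG, which reads CATTCC on the other strand. All 5 genes matched the RefSeq table, with 12 windows between them. The motif was present in 2 of the 12 windows, and in 12.6% of 32851 windows over all genes. The windows of *Dnmt3l*, the gene with the clearest response below, and the *Uhrf1* window that also holds the motif are printed 5′ to 3′, with the motif in capitals. The first *Dnmt3l* window lies inside the span of *Aire*, and those of start sites 2 and 3 lie inside the span of *Dnmt3l* itself. Whether they are exonic or intronic was not analysed here.
Dnmt3l start site 1, plus strand, chr10:78042037-78042286: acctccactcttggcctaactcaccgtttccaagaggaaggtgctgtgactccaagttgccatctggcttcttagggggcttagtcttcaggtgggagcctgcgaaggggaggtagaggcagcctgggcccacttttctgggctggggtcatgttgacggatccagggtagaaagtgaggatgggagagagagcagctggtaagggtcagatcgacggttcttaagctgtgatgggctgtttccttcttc
Dnmt3l start site 2, plus strand, chr10:78049592-78049841: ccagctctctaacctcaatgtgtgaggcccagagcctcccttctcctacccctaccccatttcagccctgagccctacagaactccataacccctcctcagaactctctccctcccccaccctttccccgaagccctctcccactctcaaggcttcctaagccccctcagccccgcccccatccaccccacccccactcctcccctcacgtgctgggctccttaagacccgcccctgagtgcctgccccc
Dnmt3l start site 3, plus strand, chr10:78055085-78055334: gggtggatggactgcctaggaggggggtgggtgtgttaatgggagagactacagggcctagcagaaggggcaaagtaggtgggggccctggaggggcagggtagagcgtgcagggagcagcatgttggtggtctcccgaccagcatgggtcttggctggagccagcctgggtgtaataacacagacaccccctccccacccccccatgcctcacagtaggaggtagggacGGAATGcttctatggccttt
Uhrf1 start site 1, plus strand, chr17:56303087-56303336: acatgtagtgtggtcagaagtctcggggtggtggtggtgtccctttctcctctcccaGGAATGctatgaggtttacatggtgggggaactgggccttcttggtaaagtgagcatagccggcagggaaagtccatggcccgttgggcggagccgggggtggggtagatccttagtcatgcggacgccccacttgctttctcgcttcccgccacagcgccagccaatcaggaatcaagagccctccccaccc

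In *Dnmt3l* the motif began 20 bases before start site 3, and in *Uhrf1* it began 193 bases before start site 1. A match in sequence does not show binding, which was not tested here. The paper reported that chromatin immunoprecipitation of YAP in undifferentiated ESCs gave no sign of binding near *Dnmt3l*. It found few peaks in all, and proposes that few of these cells holding much YAP in the nucleus is the likely reason. The windows also differed in CpG content, the substrate of these enzymes. The 3 *Dnmt3l* windows held 5, 4 and 3 CpG pairs, against a median of 6 over all windows. The *Dnmt3a* windows held 38, 40 and 15, the *Dnmt3b* window 21, the *Uhrf1* windows 10 and 30, and the *Dnmt1* windows 2, 7 and 26. These counts describe the sequence and do not show which start site the cells used.

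Levels are given as counts per 1000000 counts of a library (CPM), after TMM scaling. Library depth was 4.29e+07 to 5.72e+07 expected counts, and the 5 genes had 3606 to 27397 counts per library, a counting error of 0.604% to 1.67%. The coefficient of variation within groups was 0.917% to 6.63%. *Yap1* itself had 116 to 135 CPM in CTR KD libraries against 54.9 to 58.5 CPM after the knockdown, and 130.2 to 134 CPM in CTR OE libraries against 244 to 277 CPM after overexpression, in the labelled direction both times. The 7 ESC markers summed to 3623 to 3987 CPM in every library and none of them passed the edgeR test in either experiment, with 4 at an unadjusted p under 0.05 in the knockdown and 1 in the overexpression. All 4 were lower after the knockdown: *Nanog* (log2 fold change -0.13), *Zfp42* (-0.13), *Esrrb* (-0.16) and *Tfcp2l1* (-0.10). The other 3 had positive log2 fold changes there. The 1 in the overexpression, *Klf4*, was lower (-0.11).

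Levels of different genes were compared as CPM per kilobase of effective transcript length. The order was the same in all 12 libraries: *Dnmt3l* was highest, then *Uhrf1*, *Dnmt1*, *Dnmt3b* and *Dnmt3a*. In CTR KD the levels per kilobase were 183 ± 6.42 for *Dnmt3l*, 103 ± 2.50 for *Uhrf1*, 92.7 ± 6.14 for *Dnmt1*, 57.8 ± 3.70 for *Dnmt3b* and 9.70 ± 0.516 for *Dnmt3a* (SD, n = 3). Neighbours in this order had no overlapping ranges within any group. The narrowest step was *Uhrf1* over *Dnmt1*, by 1.10-fold in YAP KD to 1.16-fold in CTR OE. The widest was *Dnmt3b* over *Dnmt3a*, by 5.05-fold in YAP KD to 7.40-fold in YAP OE. The step from *Dnmt3l* to *Uhrf1* varied most with YAP within each experiment. It was 1.15-fold in YAP KD against 1.78-fold in CTR KD, and 2.54-fold in YAP OE against 1.96-fold in CTR OE.

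**Figure D1:**
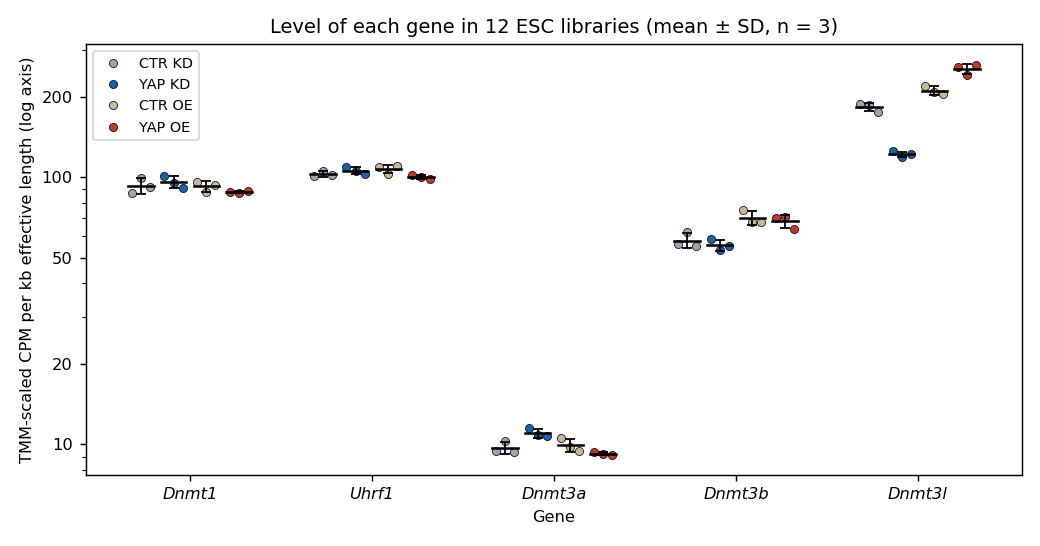
Level of each gene in CPM per kilobase of effective length (log axis) in every library, grouped by gene and coloured by group, with the mean and SD over 3 libraries. *Dnmt3l* separates from the control of each experiment, at 122 in YAP KD against 183 in CTR KD. In YAP OE it is 254, against 210 in CTR OE, while *Dnmt1* and *Uhrf1* stay near 100.

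*Dnmt3l*, the cofactor, fell when YAP was lowered and rose when it was raised, as the paper reported from this RNA-Seq and by qPCR. Its level in the CTR KD libraries was 279, 276 and 263 CPM, and in the YAP KD libraries 185, 176 and 182 CPM. All YAP KD libraries lay below all CTR KD libraries, as was the case for 12.9% of genes tested. It fell by 33.5%, a log2 fold change of -0.59 ± 0.0421 (SE; 95% interval -0.68 to -0.50; edgeR adjusted p = 0.000122). Among 14606 genes tested, 5.49% passed in the knockdown, 2.71% as higher and 2.78% as lower, and *Dnmt3l*, 1 of the 5 genes followed here, ranked 11 by p-value. The other 4 did not pass in either experiment. These are bulk cultures, in which fewer cells expressing a gene and less RNA per cell cannot be told apart.

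In CTR OE the *Dnmt3l* level was 326, 309.8 and 305 CPM, and in YAP OE 384, 361 and 391 CPM. The groups did not overlap, with all YAP OE libraries higher, as was the case for 10.3% of genes tested. The rise was 20.7%, a log2 fold change of 0.27 ± 0.0452 (SE; 95% interval 0.18 to 0.37; edgeR adjusted p = 0.00399). In the overexpression 2.13% of 14804 genes passed, 1.66% as higher and 0.473% as lower. The call was lost without CTR OE replicate 3 (edgeR adjusted p = 0.0523) and on the log2(TPM + 1) scale (limma adjusted p = 0.351), with estimates of 0.25 and 0.29.

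The *Dnmt3l* responses differed between the experiments by 0.86 ± 0.0606 on the log2 scale (overexpression minus knockdown, edgeR adjusted p = 4.22e-07), where 8.8% of genes passed, 5.24% above 0 and 3.56% below. The fall was larger than the rise: the sum of both log2 changes was -0.32 ± 0.0605 (edgeR adjusted p = 0.0130), in a test that 1.22% of genes passed, 0.784% above 0 and 0.432% below. That second call did not hold without YAP KD replicate 2 (edgeR adjusted p = 0.0511), with the replicate number as a block (edgeR adjusted p = 0.0691) or on the TPM scales. The doses of siRNA and plasmid were not matched.

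*Dnmt3a*, the less abundant of the de novo enzymes, differed from its controls with the opposite sign to *Dnmt3l*, and passed in neither experiment on its own. In CTR KD it was 84.6, 91.9 and 83.4 CPM, and in YAP KD 101, 96.4 and 95.5 CPM. The groups did not overlap, as was the case for 25.7% of genes tested, 12.8% with YAP KD higher and 12.9% with YAP KD lower. The log2 fold change of 0.18 ± 0.0485 (95% interval 0.07 to 0.28) did not pass (edgeR adjusted p = 0.0715). It passed when all 12 libraries were fitted together (edgeR adjusted p = 0.0325) and without CTR KD replicate 2 (edgeR adjusted p = 0.00927).

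In the overexpression *Dnmt3a* was 94.1, 87.5 and 84.5 CPM in CTR OE and 84.0, 82.5 and 81.9 CPM in YAP OE. The groups were separated by less than 1 CPM, and 18.2% of genes showed no overlap in this experiment, 10.3% with YAP OE higher and 7.9% with YAP OE lower. The log2 fold change was -0.10 ± 0.0425 (edgeR adjusted p = 0.319). The difference of the *Dnmt3a* responses between experiments passed, at -0.27 ± 0.0665 (edgeR adjusted p = 0.0176). It did not pass without CTR KD replicate 3 (edgeR adjusted p = 0.0553) or without CTR OE replicate 1 (edgeR adjusted p = 0.0508), nor on log2(TPM + 1) and log2(TPM + 0.1) (limma adjusted p = 0.921 and 0.911).

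*Dnmt3b*, the main de novo enzyme by level here, passed in neither experiment. It was 226, 249 and 222 CPM in CTR KD against 234, 213 and 222 CPM in YAP KD (log2 fold change -0.06 ± 0.0540; 95% interval -0.18 to 0.06; edgeR adjusted p = 0.628). It was 303, 272 and 273 CPM in CTR OE against 281, 285 and 256 CPM in YAP OE (log2 fold change -0.04 ± 0.0527; 95% interval -0.16 to 0.07; edgeR adjusted p = 0.807). The groups overlapped in both. The intervals include losses of 11.7% and 10.2% and gains of 4.44% and 4.92%. The control cultures of both transfections also stood apart, at 222 to 249 CPM against 272 to 303 CPM, a difference that was not tested. For *Dnmt3l* the controls were likewise apart, at 263 to 279 CPM in CTR KD and 305 to 326 CPM in CTR OE, also not tested.

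The maintenance genes passed in neither experiment. *Dnmt1* was 455, 517 and 476 CPM in CTR KD against 526, 494 and 474 CPM in YAP KD, with overlapping groups and a log2 fold change of 0.05 ± 0.0559 (95% interval -0.08 to 0.17; edgeR adjusted p = 0.711). In CTR OE it was 498, 456 and 488 CPM and in YAP OE 459, 453 and 459.8 CPM, again overlapping, with a log2 fold change of -0.07 ± 0.0439 (95% interval -0.16 to 0.02; edgeR adjusted p = 0.543).

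*Uhrf1* was 340.1, 356 and 344 CPM in CTR KD against 368, 355 and 346 CPM in YAP KD, which overlap (log2 fold change 0.04 ± 0.0405; 95% interval -0.05 to 0.13; edgeR adjusted p = 0.650). In the overexpression it was 367, 347 and 371 CPM in CTR OE against 343, 337 and 330.4 CPM in YAP OE. Here every YAP OE library was below every CTR OE library, as was the case for 7.9% of genes tested. The log2 fold change of -0.10 ± 0.0421 (95% interval -0.19 to -0.01) did not pass the correction (edgeR adjusted p = 0.291).

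**Figure D2:**
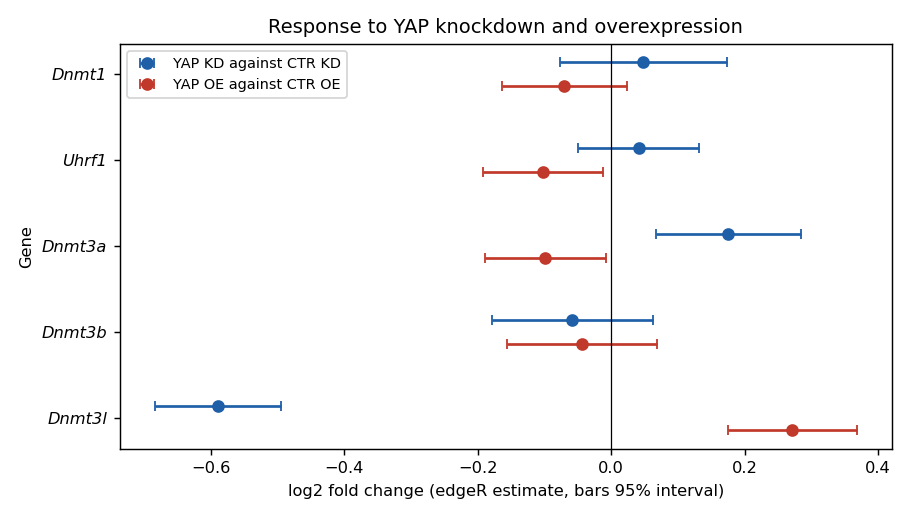
Log2 fold change of each gene in YAP KD against CTR KD (blue) and YAP OE against CTR OE (red), as edgeR estimates with 95% intervals. *Dnmt3l* lies at -0.59 and 0.27, and the other 8 estimates lie between -0.10 and 0.18.

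The balance of the genes was described by ratios of their levels per kilobase, without a test since the ratios reuse the levels above. *Dnmt3l* relative to the sum of *Dnmt3a* and *Dnmt3b* was 2.85, 2.56 and 2.72 in CTR KD and 1.78, 1.85 and 1.84 in YAP KD. From the means of the log2 ratios, as for every percentage change of a ratio here, the difference was -32.6%, with no overlap. The same ratio was 2.55, 2.68 and 2.64 in CTR OE and 3.26, 3.00 and 3.60 in YAP OE, 24.9% higher and again with no overlap. As a share of the summed level of the 3 *Dnmt3* genes, *Dnmt3l* made up 71.9% to 74.1% in CTR KD, 64.1% to 65.0% in YAP KD, 71.8% to 72.8% in CTR OE and 75.0% to 78.3% in YAP OE.

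Within the de novo pair, the ratio of *Dnmt3a* to *Dnmt3b* was 0.168, 0.166 and 0.169 in CTR KD and 0.197, 0.204 and 0.194 in YAP KD. It was 17.9% higher in YAP KD, with a gap between groups that exceeds the range within either. In CTR OE it was 0.139, 0.144 and 0.139 and in YAP OE 0.134, 0.129 and 0.143, with overlap. On the log2 scale the difference was 0.24 after the knockdown and -0.06 after overexpression.

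De novo enzymes relative to the maintenance enzyme, the sum of *Dnmt3a* and *Dnmt3b* over *Dnmt1*, overlapped in both experiments. The means were 0.729 ± 0.0232 in CTR KD, 0.696 ± 0.0265 in YAP KD, 0.870 ± 0.0389 in CTR OE and 0.882 ± 0.0511 in YAP OE (SD, n = 3). The control groups of the experiments stood apart, at 0.706 to 0.752 in CTR KD and 0.826 to 0.899 in CTR OE, which was not tested. The ratio of *Uhrf1* to *Dnmt1* was 1.11 ± 0.0470 in CTR KD and 1.11 ± 0.0225 in YAP KD. It was 1.16 ± 0.0206 in CTR OE and 1.14 ± 0.0234 in YAP OE, overlapping too.

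**Figure D3:**
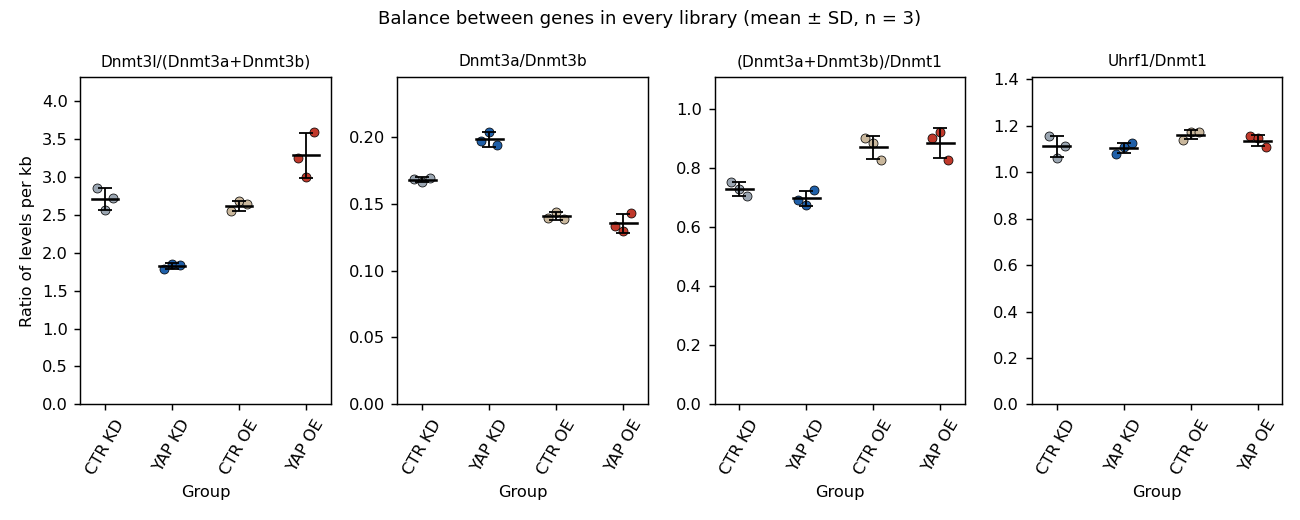
Ratios of levels per kilobase in every library, with the mean and SD over 3 libraries and axes from 0. From left to right the panels show *Dnmt3l* over the de novo pair, *Dnmt3a* over *Dnmt3b*, the de novo pair over *Dnmt1*, and *Uhrf1* over *Dnmt1*. The first panel separates both YAP groups from their controls, at 1.83 against 2.71 and 3.28 against 2.62.

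The tables give for each gene a transcript length weighted by the estimated abundance of its isoforms, which moves when isoform use does. *Dnmt3a* averaged 9123, 9108 and 9090 bases in CTR KD and 9012, 9066 and 9085 bases in YAP KD. The difference of -52.7 bases, with no overlap, did not pass (limma adjusted p = 0.950). In CTR OE it was 9110, 9136 and 9136 bases and in YAP OE 9139.9, 9140.9 and 9139.8 bases, 12.7 bases longer and also without overlap (limma adjusted p = 0.996). *Dnmt3b* was 4197, 4189 and 4195 bases in CTR KD and 4184, 4182 and 4186 bases in YAP KD, a difference of -9.30 bases without overlap (limma unadjusted p = 0.0178, adjusted p = 0.822).

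Lengths of the other 3 genes overlapped in both experiments, as did *Dnmt3b* in the overexpression. None of the 5 genes passed, where 0.0% of 4294 genes passed in the knockdown and 0.023% of 4352 in the overexpression. At an unadjusted p under 0.05 there was 1 of the 5, *Dnmt3b* in the knockdown. Lengths did not overlap between groups for 10.5% of genes after the knockdown and for 9.7% after overexpression. Which isoform carried the shifts, and how large a change of isoform mix they correspond to, was not analysed here.

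**Figure D4:**
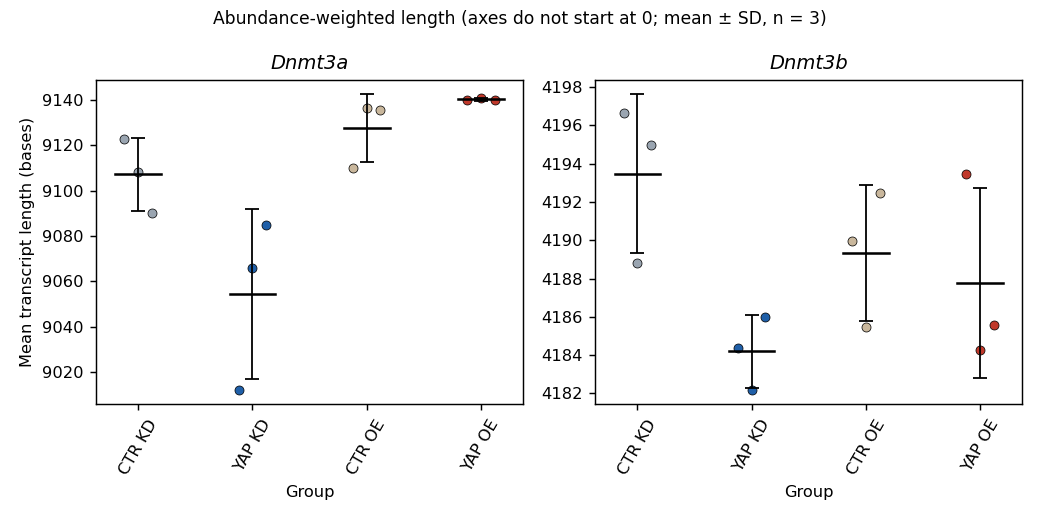
Abundance-weighted transcript length in bases of *Dnmt3a* (left) and *Dnmt3b* (right) in every library, with the mean and SD over 3 libraries, on axes that do not start at 0. *Dnmt3a* has means of 9107 in CTR KD and 9054 in YAP KD, and the YAP OE libraries lie within 2 bases of each other.

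Other genes of the pathway were taken from 6 lists. Of 65 tested genes, on lists of partners of maintenance methylation, regulators of de novo methylation, readers of methylated CpG, suppliers of the methyl donor, S phase genes and a family relative, 2 rose and 0 fell in the knockdown by edgeR. That is 3.08% of them, where 5.49% of all genes passed. At an unadjusted p under 0.05 there were 20, or 30.8%, against 19.6% of all genes. The number called was 0 to 3 when a library was left out and 0 to 6 under the other alternatives, with 6 when all 12 libraries were fitted together. The genes that rose were *Slbp*, which binds histone mRNA in S phase (log2 fold change 0.21, edgeR adjusted p = 0.0261), and *Trdmt1*, formerly called *Dnmt2*, which methylates transfer RNA (0.30, edgeR adjusted p = 0.0382). Both calls were lost on log2(TPM + 1) and log2(TPM + 0.1), with the replicate number as a block, without CTR KD replicate 1 and without any one of the YAP KD libraries. *Trdmt1* was also not called by DESeq2 or without CTR KD replicate 3.

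In the overexpression edgeR called 0 of the 65 genes, where 2.13% of all genes passed. At an unadjusted p under 0.05 there were 9, or 13.8%, against 13.1% of all genes. DESeq2 called 1, among the methyl donor genes, limma-voom 0, edgeR without a filter on low counts 2, and edgeR without YAP OE replicate 1 called 1. List medians in the knockdown were 0.01 for the 12 maintenance partners, 0.05 for the 15 de novo regulators, 0.01 for the 8 readers, -0.04 for the 15 methyl donor genes and 0.04 for the 14 S phase genes, with 0.01 over all genes. In the overexpression they were -0.01, -0.02, -0.0026, -0.01 and -0.03, with -0.0025 over all genes.

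Among single partners, *Pcna*, the replication clamp that DNMT1 binds, had a log2 fold change of 0.10 in the knockdown (edgeR adjusted p = 0.236) and -0.10 in the overexpression (edgeR adjusted p = 0.327). *Usp7*, a deubiquitinase of DNMT1 and UHRF1, stood at 0.09 and -0.02, and *Hells*, a chromatin remodeler, at 0.03 and -0.03. *Dppa3*, which restrains UHRF1 and thereby maintenance methylation, stood at -0.12 and -0.0021. *Prdm14*, a repressor of *Dnmt3b* and *Dnmt3l* in ESCs, stood at 0.12 in the knockdown (edgeR adjusted p = 0.148) and -0.12 in the overexpression (edgeR adjusted p = 0.237). *Mat2a*, which makes the methyl donor, stood at 0.01 and -0.09. None of these 6 passed in either experiment.

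**Figure D5:**
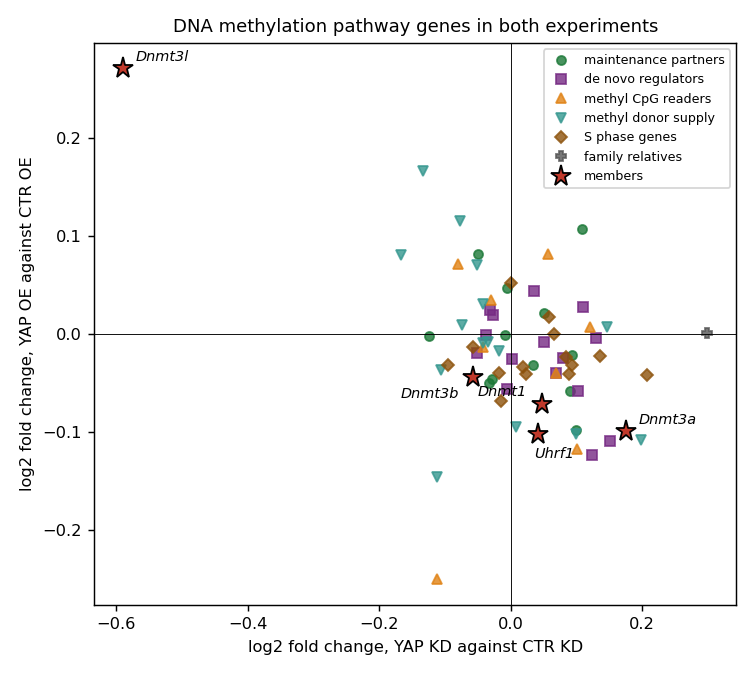
Log2 fold change in the knockdown (x axis) and overexpression (y axis) of the 5 genes (stars) and the 65 tested genes of the pathway lists, with a marker per list. *Dnmt3l* lies alone at the upper left, at -0.59 and 0.27, and the list genes lie between -0.17 and 0.30 on the x axis.

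The neighbours of *Dnmt3l* on chromosome 10 did not share its pattern in full. *Aire*, the overlapping gene, was 2.01 ± 0.218 CPM in CTR KD against 2.13 ± 0.431 CPM in YAP KD (edgeR adjusted p = 0.806). It rose from 2.51 ± 0.335 to 4.11 ± 0.454 CPM in the overexpression (log2 fold change 0.71, edgeR adjusted p = 0.00516; SD, n = 3). The strand setting of the counting is not stated. All *Dnmt3l* counts were whole, which cannot show whether reads of the shared stretch were assigned to the right gene. The placement of reads in the shared stretch was not examined. *Dnmt3l* averaged 181 CPM in YAP KD, its lowest group.

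*Pfkl*, a glycolytic phosphofructokinase gene 32480 bases below, rose in the knockdown from 174 to 237 CPM (log2 fold change 0.45, edgeR adjusted p = 0.00131), opposite to *Dnmt3l*. It stood at 0.22 in the overexpression (edgeR adjusted p = 0.123). *Icosl*, a costimulatory ligand gene 5746 bases above, had log2 fold changes of -0.33 (edgeR adjusted p = 0.206) and 0.05 (edgeR adjusted p = 0.885).

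Across the 12 libraries, after the mean of each experiment was subtracted from log2(CPM + 1), the genes with the pattern most like *Dnmt3l* among 8509 were *Fgfbp1* (Pearson r = 0.99), *Tgm1* (0.98), *Tek* (0.98), *Tm7sf3* (0.98) and *Nefl* (0.98). These are descriptions, since genes were picked for their r and the points share libraries and scaling. *Fgfbp1*, a carrier of fibroblast growth factors, had log2 fold changes of -0.995 and 0.53 in the knockdown and overexpression. *Tgm1*, a transglutaminase gene, had -0.76 and 0.45, and *Tek*, an angiopoietin receptor gene, -0.85 and 0.38. *Nefl*, the neurofilament light chain gene, had -0.63 and 0.20, and *Tm7sf3* -0.22 and 0.11.

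Among the genes most like *Dnmt3a* were *Sox13* (r = 0.95) and *Rarg* (0.94), which encodes a retinoic acid receptor. Most like *Dnmt1* were *Tfe3* (0.97), *Osbp* (0.94) and *Gm4737* (0.94), most like *Dnmt3b* were *Crmp1* (0.91), *Eif4ebp2* (0.89) and *Ehmt1* (0.88), and most like *Uhrf1* were *Cxxc5* (0.94), *Fam193a* (0.93) and *Adat2* (0.93). Between the genes themselves, r was highest for *Dnmt1* with *Uhrf1* (0.85) and lowest for *Dnmt3a* with *Dnmt3l* (-0.75).

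Some markers of other cell states moved with YAP. The 5 formative pluripotency markers summed to 85.6 to 99.0 CPM in CTR KD against 101 to 109 CPM in YAP KD, and to 88.6 to 96.2 CPM in CTR OE and 75.7 to 88.3 CPM in YAP OE. Of them *Zic2* rose in the knockdown (0.50, edgeR adjusted p = 0.0137) and fell in the overexpression (-0.43, edgeR adjusted p = 0.00118), and *Sall2* fell in the overexpression (-0.34, edgeR adjusted p = 0.0325). *Zic2* carried most of the shift in the sum, with means of 38.5 CPM in CTR KD libraries and 54.3 CPM after the knockdown. *Otx2* had the opposite signs, at -0.16 and 0.05, and passed in neither experiment. The 5 trophoblast markers summed to 1.64 to 2.41 CPM in CTR OE and 3.56 to 4.41 CPM in YAP OE, where *Cdx2* and *Gata3* rose to 0.628 and 1.04 CPM. They summed to 1.35 to 2.02 CPM in the knockdown libraries.

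Of the 4 germ cell markers *Mael* rose in the overexpression (0.45, edgeR adjusted p = 0.00891), and the list summed to 58.2 to 68.9 CPM over all libraries. The 5 primitive endoderm markers summed to 2.82 to 4.34 CPM, with none called by edgeR and 0 at an unadjusted p under 0.05. The 5 fibroblast markers summed to 2.50 to 2.79 CPM in CTR KD libraries and 3.12 to 3.80 CPM after the knockdown, without overlap. Of single genes tested, 25.7% showed no overlap in the knockdown. They summed to 3.42 to 3.81 CPM in CTR OE libraries and 3.60 to 4.03 CPM after overexpression, with overlap. EdgeR called none of them, and 2 in the knockdown and 1 in the overexpression had an unadjusted p under 0.05. *Col1a1* and *Col1a2* had log2 fold changes of 1.10 and 0.73 in the knockdown, from levels under 1 CPM. *Pdgfrb* and *Thy1* stood at 0.28 and 0.10 there, and *Col3a1* went the other way, at -0.21. No marker was at 0 in all libraries of a group. The part of these shifts in the *Dnmt3l* and *Dnmt3a* results was not tested.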

How the data were processed

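Total RNA from 12 libraries was sequenced on an Illumina Genome Analyzer. The authors aligned reads with STAR to mm10 and quantified curated RefSeq genes with RSEM, whose versions and strand setting are not given in the sources used here. The deposited tables hold expected counts, TPM and FPKM per gene, plus the mean transcript and effective length in bases; RSEM divides reads shared by several transcripts by likelihood, and all counts of the 5 genes were whole. Members and gene lists were chosen with earlier results of these data known.

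Expected counts were rounded and tested per experiment (3 against 3 libraries) with edgeR 4.0.16 in R 4.3.3: filterByExpr, TMM factors, quasi-likelihood F test, two-sided, Benjamini-Hochberg adjustment over all genes tested, threshold 0.05. The difference between experiments and the sum of both changes came from 1 fit of 12 libraries. Lengths were tested as log2 values with limma 3.58.1. Printed CPM use TMM factors over 12 libraries, and SEs were derived from the F statistic. Replicates are independent samples per the paper, and their counts differed beyond sampling noise in every pair. The code was tested on simulated data.

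Genes were named by rule: the 5 members, *Yap1*, called list genes, *Pcna*, *Hells*, *Usp7*, *Dppa3*, *Prdm14*, *Mat2a* and *Trdmt1*, the genes beside *Dnmt3l*, the most alike genes (mean of at least 10 CPM), and markers. *Aire* and the marker genes named were chosen after their values were seen. *Gm14490* was not analysed here. A gene among the most alike is not reported here. Alternatives were other scaling factors, filters and tests (DESeq2 1.42.0, limma-voom), 1 fit of all libraries, a length offset, removal of genes under 200 bases, log2(TPM + 1) and log2(TPM + 0.1), a replicate block, FPKM for ratios, and each library left out. List counts under these alternatives, and ratios without each library, were added after seeing the data.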

Additional observations from a re-analysis of the deposited data

Results flagged for a closer look

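The responses to YAP in the knockdown and the overexpression were compared in 1 fit. Of the 5 genes, 2 differed between the experiments, where 8.8% of 15049 genes tested did. *Dnmt3l* differed by 0.86 on the log2 scale (SE 0.0606; edgeR adjusted p = 4.22e-07; overexpression minus knockdown), with lower levels in 3 of 3 YAP KD libraries and higher levels in 3 of 3 YAP OE libraries than in any control library of the same experiment. *Dnmt3a* differed by -0.27 (SE 0.0665; edgeR adjusted p = 0.0176). It passed in neither experiment alone (edgeR adjusted p = 0.0715 in the knockdown and 0.319 in the overexpression). Its 3 YAP KD libraries lay above the controls of their own experiment, and its 3 YAP OE libraries lay below theirs by less than 1 CPM. Groups did not overlap for 25.7% of all genes tested in the knockdown and 18.2% in the overexpression. With 3 libraries per group, single libraries were not tested for standing apart.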

How the results depend on the processing

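*Dnmt3l* in the knockdown passed under every alternative run (-0.62 to -0.57). *Dnmt3l* in the overexpression was 0.24 to 0.30 when a library was left out, and was not called without CTR OE replicate 3 (0.25), nor on log2(TPM + 1) (0.29) or log2(TPM + 0.1) (0.30), so 0 of the 5 genes were called in those 3 settings against 1. *Dnmt3a* in the knockdown was called with all 12 libraries in 1 fit (0.17) and without CTR KD replicate 2 (0.22; 0.15 to 0.22 over left-out libraries), which made 2 genes called against 1 (1 to 2 over left-out libraries). The difference between experiments was called for 1 gene against 2 on both TPM scales and without CTR KD replicate 3 or CTR OE replicate 1 (1 to 2 over left-out libraries). The unequal size of opposite changes was called for 0 genes against 1 on both TPM scales, with the block and without YAP KD replicate 2 (0 to 1 over left-out libraries). The cause was not tested.

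Uncalled values near 0 changed sign without single libraries: *Dnmt3b* in the overexpression (-0.073 to 0.0092), the *Dnmt3b* difference between experiments (-0.038 to 0.068), the *Dnmt1* sum of changes (-0.068 to 0.028), the log2 difference of the ratio *Uhrf1* to *Dnmt1* in the knockdown (-0.039 to 0.022) and of the de novo pair to *Dnmt1* in the overexpression (-0.017 to 0.068), and the *Dnmt3b* log2 length in the overexpression (-0.0015 to 6.7e-05). Over all genes, 396 rose and 406 fell in the knockdown, against 37 and 37 on log2(TPM + 1), 21 and 26 on log2(TPM + 0.1), 595 and 666 with 12 libraries, and 147 to 528 and 151 to 491 over left-out libraries. In the overexpression 246 rose and 70 fell, against 81 and 6, 64 and 4 on the TPM scales, 379 and 177 without a filter, and 137 to 255 and 17 to 98 over left-out libraries.

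Deviations of same-numbered libraries from their group mean correlated at -0.26, -0.10 and -0.01 in the knockdown and 0.02, 0.05 and 0.04 in the overexpression. Libraries with different numbers gave -0.12 to 0.21 in the knockdown and -0.05 to 0.0092 in the overexpression. In the overexpression every same-numbered value was thus the higher. With 3 libraries per group these values cannot show whether samples were prepared in pairs. With the replicate number as a block, 97 genes rose and 96 fell in the knockdown and 220 and 60 in the overexpression. *Dnmt3l* stayed called at -0.59 and 0.27, and the block changed no other call on the 5 genes except the sum of changes of *Dnmt3l*.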
